A study of Homo sapiens with 4 samples.

Results

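The transcriptome of PANC-1, an established line of human pancreatic carcinoma, was compared between cells given a single X-ray dose of 10 Gy and unirradiated cells. A gene was included if its row carried an Ensembl gene ID and its FPKM, a level corrected for transcript length and sequencing depth, reached 1 in at least 1 of the 2 libraries. This left 15159 of the 58174 Ensembl genes in the table. The series holds 4 libraries, 1 of irradiated and 1 of unirradiated cells from each of 2 pancreatic cancer lines, and the 2 from PANC-1 are described here. Both were cells of the same passage range grown in DMEM with 10% FBS, with no genetic change named for either, and neither the labels nor the methods gave the interval between irradiation and RNA extraction. The unirradiated library held 23451153 counts and the irradiated library 20154644 counts. With 1 library per condition there was no replicate spread, so each difference below is a difference between 2 libraries, and its interval covers counting error only.

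Ionizing radiation breaks DNA, and cells answer through the kinases ATM and ATR and through arrest of the cell cycle while breaks are repaired. Separate stress programmes read the state of protein folding and of amino acid supply. In the integrated stress response, kinases that phosphorylate the initiation factor eIF2α reduce general translation and favour translation of ATF4, a transcription factor that induces genes for amino acid synthesis and uptake and for the redox balance. In the unfolded protein response, sensors in the membrane of the endoplasmic reticulum induce chaperones and degradation factors.

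The labelled cell type was compared with marker genes first. All 7 carcinoma markers were measured in both libraries, with KRT8 at FPKM 786 in unirradiated and 851 in irradiated cells, KRT18 at 468 and 539, and VIM, a mesenchymal filament gene, at 1627 and 1650. CDH1, the epithelial cadherin, was near the limit at 0.673 and 1.21. Of 8 fibroblast markers only COL1A1 passed the limit, with 965 and 1315 counts, while COL1A2, DCN, FAP and PDGFRA had 0 counts in both libraries. Of 8 leukocyte markers CD68 and CD14 passed, and PTPRC, which defines leukocytes, had 0 counts. Of 8 endothelial markers KDR and ESAM passed, and PECAM1 and CDH5 had 0 counts. The 8 acinar and endocrine markers had none above the limit.

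A gene was called when the adjusted p of an exact binomial test of its reads in the 2 libraries was below 0.001 and its fold change exceeded 2. By this rule 718 genes were called, 4.74% of those tested, of which 384 were higher in irradiated cells (2.53%) and 334 lower (2.2%). With libraries scaled by their total counts instead, 740 genes were called and 62.2% of them were higher, against 53.5% with the main scaling. The fold change of FPKM also exceeded 2 in the same direction for 535 of the called genes (3.53%), 310 of them higher and 225 lower. The median log2 change over all genes tested was 0.00 and the quartiles −0.26 and 0.28, and 7626 genes were higher and 7533 lower, so values of groups below are read against a centre near 0.

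**Figure D1:**
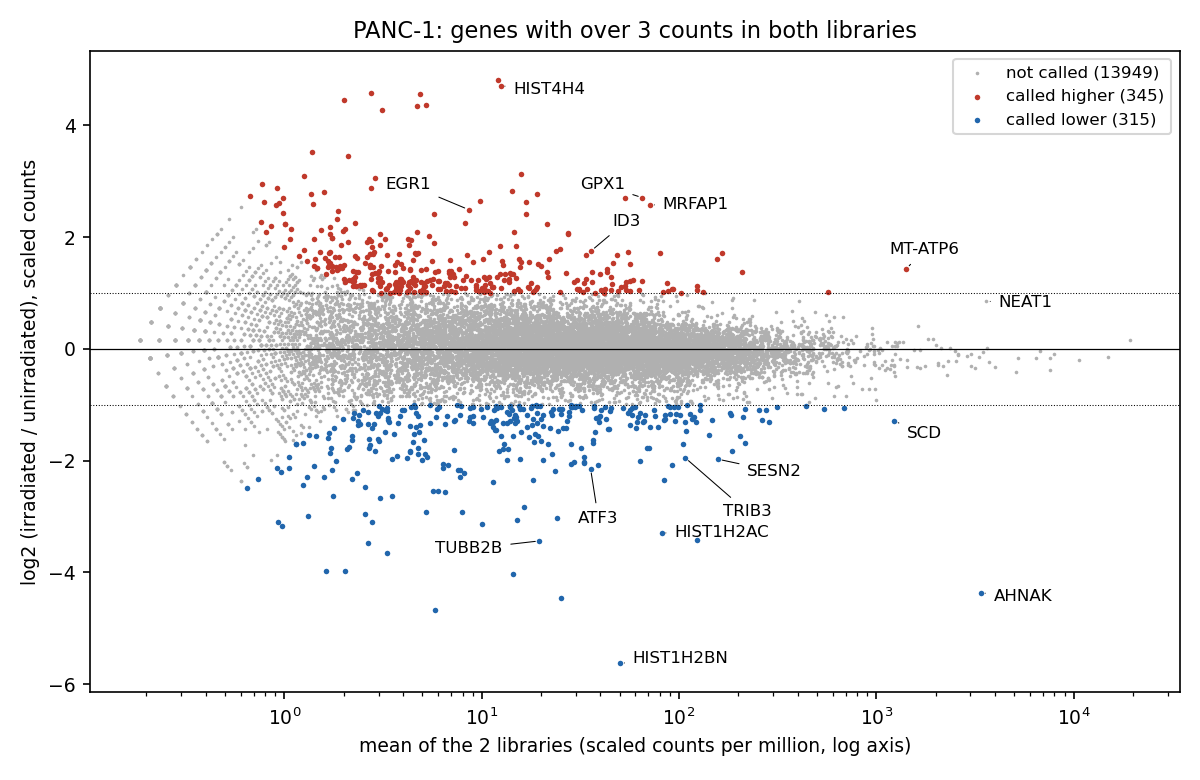
Each point is one of the 14609 genes with more than 3 counts in both libraries, by its mean level in CPM of scaled counts (log axis) and its log2 ratio of irradiated to unirradiated cells. Red points (345) were called higher and blue points (315) lower, dotted lines mark a fold change of 2, and ATF3, TRIB3 and SESN2 lie near −2 among more abundant genes than most calls.

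Calls were not spread evenly over abundance. When genes were ranked by mean level and cut into 10 groups, 52 of the 1516 genes of the lowest group were called (3.43%) and 182 of the second, against 25 of the highest (1.65%). Among protein-coding genes the log2 change rose with the GC content of the transcripts, from a median of −0.09 in the lowest of 5 groups of near-equal size to 0.16 in the highest. In the lowest of these groups 22 genes were called higher and 45 lower, and in the highest 103 were higher and 36 lower. The part of base composition in single results was not tested. The 384 genes of the ZNF family had a median of −0.14, with 16 called higher and 11 lower. Over all genes 2.53% were called higher and 2.2% lower. Of long intergenic noncoding RNAs 8.60% were called (25 higher, 13 lower), and of antisense RNAs 6.92% (18 higher, 15 lower), against 4.74% of all genes.

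Among the lists examined, genes of the unfolded protein and integrated stress responses had the lowest median and the largest share of calls. Groups drawn up after values had been seen are not part of this comparison. The lists compared were themselves chosen with earlier results of these data known. All 40 genes of the stress list were tested, and 35 were lower and 5 higher in irradiated cells. Of these, 13 were called lower (32.5%, against 2.2% of all genes) and 0 higher, and the median log2 change was −0.65 by counts and −0.69 by FPKM. Part of the list is known for control by ATF4, so promoters were searched for the composite C/EBP-ATF site, TGATGNAA on either strand. Windows of 30 bases around a match are shown for the members that hold one before the RefSeq start site. Capitals mark the match.

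CHAC1, chr15:40953251-40953280, plus strand: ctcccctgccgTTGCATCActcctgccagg
ATF3, chr1:212565205-212565234, plus strand: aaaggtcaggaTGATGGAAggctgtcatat
ASNS, chr7:97872458-97872487, minus strand: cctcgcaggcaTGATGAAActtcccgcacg
HERPUD1, chr16:56931955-56931984, plus strand: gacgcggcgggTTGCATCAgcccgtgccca

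The windows are from RefSeq promoters on GRCh38.p14, which run from 250 bases before to 50 bases after a start site, and 9862 of the tested genes had one. The match ended 201 bases before the start in CHAC1, 183 in ATF3, 168 in HERPUD1 and 60 in ASNS. The windows of CHAC1 and ASNS lay inside the gene as the table gives it, and those of ATF3 and HERPUD1 lay before it. The letters occurred in 8 of the 35 members with a promoter (22.9%) and in 159 of all 9862 promoters (1.61%). Among called members 3 of 11 had a match, and among members not called 5 of 24. Since known ATF4 targets were among the genes listed, this share may reflect how the list was written, which was not tested. Over all genes, 6 of 201 promoters of genes called lower (2.99%) and 1 of 223 promoters of genes called higher (0.448%) held the letters, and 3 of these 6 were the stress list members CHAC1, ATF3 and ASNS.

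Of 7 transcription factors of the response, 6 were lower, 5 were called lower (against 2.2% of all genes) and the median was −1.10. ATF3 (chr1:212565334-212620777), a stress-induced repressor, had 1325 counts in unirradiated and 269 in irradiated cells, a log2 change of −2.15 (95% interval −2.35 to −1.96), and its FPKM was 24.0 and 5.94. NUPR1, a small chromatin-associated stress protein first described in the pancreas, had 1073 and 237 counts (−2.03). DDIT3, which encodes CHOP and links prolonged stress to cell death, had 1370 and 518 counts (−1.25), and it shares part of its locus with another tested gene. CEBPG and CEBPB, partners of ATF4 on composite sites, changed by −1.10 and −1.05, and CEBPB lost its call with total counts and with FPKM. ATF4 itself had 11187 and 6275 counts (−0.68, interval −0.73 to −0.64) and did not reach the fold limit. Its translation was not measured. ATF5, a relative of ATF4, was the only one of them that was higher, at 991 and 1066 counts (0.25).

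Effectors of the response were called lower too. SESN2, a leucine sensor that restrains mTORC1, had 5732 and 1313 counts (−1.98, interval −2.06 to −1.89), with FPKM of 57.5 and 15.2. TRIB3, a pseudokinase that feeds back on the response, had 3897 and 907 counts (−1.95). DDIT4, another brake on mTORC1, had 7523 and 2098 counts (−1.69). CHAC1, which degrades glutathione, had 1262 and 366 counts (−1.64). For all 4 the difference was several times the width of the counting interval. PPP1R15A, which encodes the GADD34 subunit that dephosphorylates eIF2α, had 3731 and 1410 counts (−1.25). VLDLR, a lipoprotein receptor, was called lower by counts (393 and 129, −1.46) while its FPKM change was −0.93.

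Enzymes of serine and asparagine synthesis and one-carbon metabolism were all lower, 6 of 6 with a median of −0.72, and ASNS was called. ASNS, asparagine synthetase, had 3898 and 1750 counts (−1.01), a call that was lost with total counts and with FPKM. PSAT1 (−0.92), PHGDH (−0.84), MTHFD2 (−0.61), PSPH (−0.58) and SHMT2 (−0.35), which make serine and move its carbon into folates, were not called. Of 12 chaperones and degradation factors of the endoplasmic reticulum, by contrast, 4 were higher and 8 lower, none was called, and the median was −0.16 by counts and −0.05 by FPKM. HSPA5, the main chaperone of that compartment, had 29727 and 14112 counts (−0.93), and HYOU1 12183 and 6257 (−0.81). HSP90B1 (0.08), PDIA4 (−0.00) and DNAJC3 (0.05) were near 0, and SDF2L1 had 284 and 409 counts (0.68). XBP1, a transcription factor of the unfolded protein response, had 1714 and 1471 counts (−0.07), and its splicing was not examined. The difference between these groups of the list was not tested, and the groups were drawn up after the values had been seen.

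**Figure D2:**
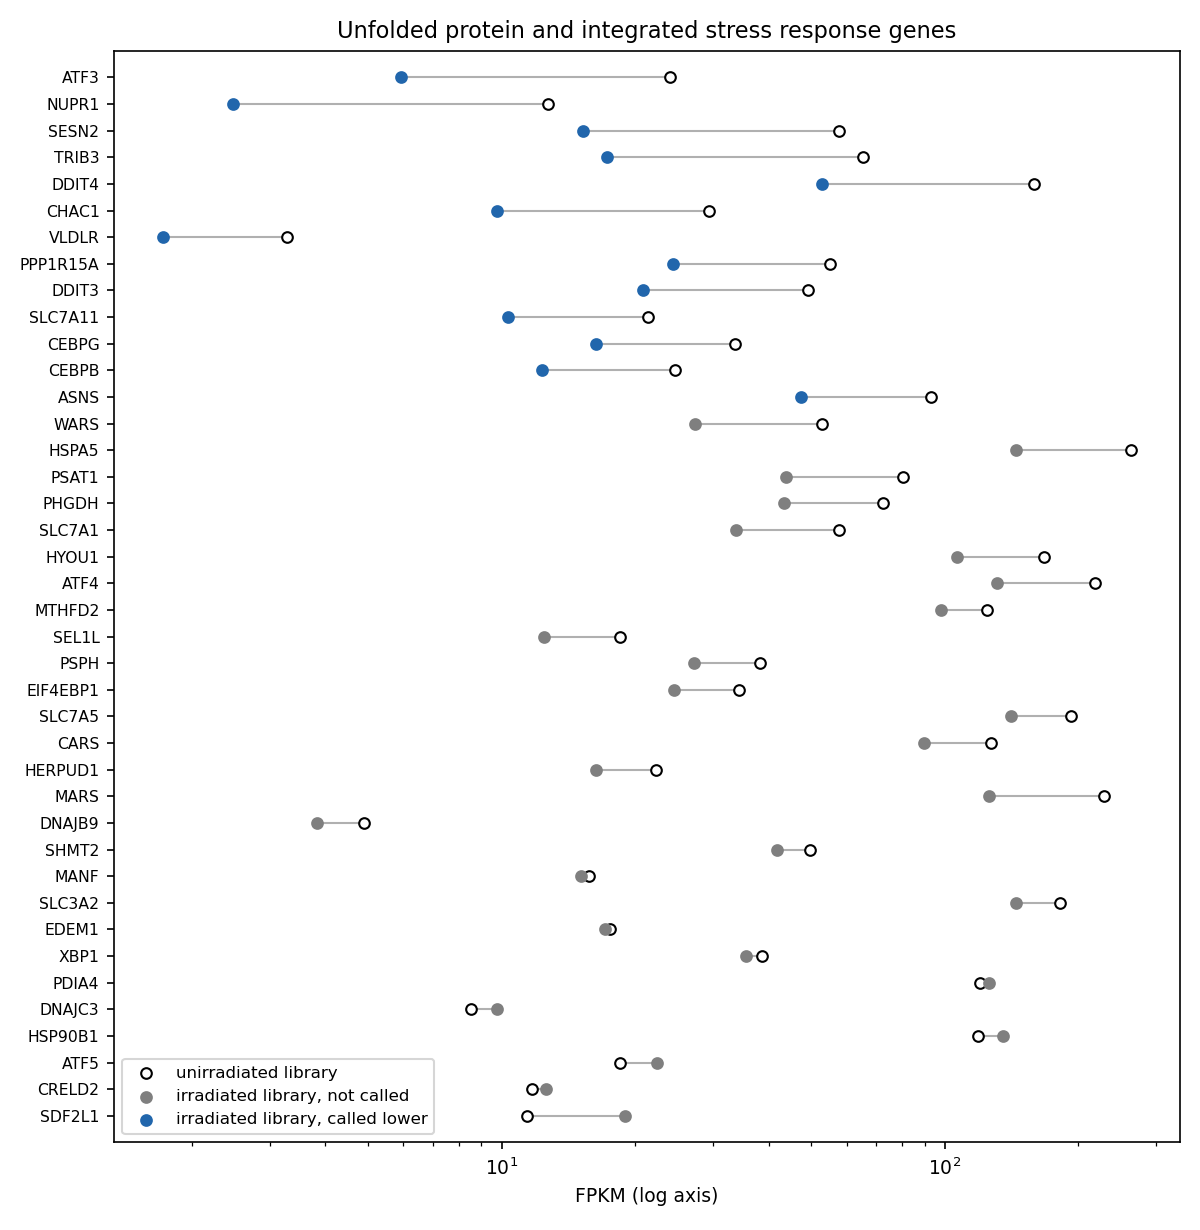
FPKM (log axis) of the 40 genes of the unfolded protein and integrated stress responses, with an open circle for the unirradiated and a filled circle for the irradiated library, ordered by log2 change. Blue circles mark the 13 genes called lower, from ATF3 at FPKM 24.0 and 5.94 to ASNS, and the bottom rows, from PDIA4 to SDF2L1, show irradiated values at or above the unirradiated ones.

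When samples were taken to vary by a biological coefficient of variation of 0.2, 4 of the 13 calls were left, namely ATF3, NUPR1, TRIB3 and SESN2. By FPKM, 10 of the 13 also exceeded a fold change of 2. The transcripts of the list had a median GC content of 51.9%, against 48.1% over all genes, and the part of base composition in these values was not tested.

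Wider groups of genes in amino acid handling were examined in the same way. They were chosen after the values had been seen and share members with the stress list, namely WARS, CARS and MARS among the synthetases and SLC7A11, SLC7A1, SLC7A5 and SLC3A2 among the transporters. Of 20 cytosolic aminoacyl-tRNA synthetases, which load tRNAs with amino acids, 16 were lower and 4 higher, and the median was −0.35. None reached the fold limit. WARS had 2369 and 1122 counts (−0.93), GARS 20568 and 10257 (−0.85) and SARS 6113 and 3221 (−0.77), while FARSA was higher at 1119 and 1425 (0.50). Of 13 amino acid transporters tested, 10 were lower and 3 were called lower, against 2.2% of all genes. SLC1A4, which exchanges alanine, serine and cysteine, had 3378 and 721 counts (−2.08, interval −2.20 to −1.96), one of the largest falls in the line. SLC7A11, the cystine-glutamate exchanger, had 5729 and 2321 counts (−1.15). SLC6A9, a glycine transporter, had 995 and 422 counts (−1.09). Of 23 autophagy genes, 15 were lower and 8 higher with a median of −0.14. MAP1LC3B, the usual marker of autophagosomes, had 3639 and 1007 counts and was called lower (−1.70), whereas MAP1LC3A was called higher from low counts (51 and 105, 1.19). These were the only calls, 1 in each direction, against 2.2% of all genes called lower and 2.53% called higher. Of the other members, ULK1, the initiating kinase, had a log2 change of −0.87, SQSTM1 of −0.30 and BECN1 of 0.04.

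Replication-dependent histone genes supply the nucleosomes of S phase, and their mRNAs end in a stem-loop instead of a poly(A) tail. Of 70 listed genes 59 were tested. In irradiated cells 52 were lower and 7 higher, 8 were called lower (against 2.2% of all genes) and 1 higher (against 2.53%), and the median log2 change was −0.55. By FPKM, 6 of the 8 lower calls and the higher call also exceeded a fold change of 2. By family, all 16 H2B genes were lower (median −0.93), and their counts summed to 47249 in unirradiated and 23316 in irradiated cells. H2A genes had a median of −0.40 (15 of 16 lower, 4 called), H3 genes −0.31 (9 of 11 lower, none called), H1 genes −0.35 (4 of 4 lower, none called) and H4 genes −0.18 (8 of 12 lower, 1 called in each direction). The 10 tested genes of the replication-independent histone list, most of which make mRNAs with poly(A) tails, had a median of 0.06 with 0 called, and H2AFZ had 4707 and 4614 counts.

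The extremes of the histone list were single genes. HIST1H2BN (chr6:27837760-27865798) had 2250 counts in unirradiated and 41 in irradiated cells (−5.63, interval −6.11 to −5.18), and its FPKM was 46.2 and 0.877. This row overlaps another tested gene on the same strand. HIST1H2AC had 3378 and 310 counts (−3.30). HIST1H2AD, HIST1H2BE and HIST1H2AE were called lower at −1.82, −1.29 and −1.17. HIST4H4 (chr12:14767999-14771131), a single H4 gene outside the main clusters, went the other way with 21 and 494 counts (4.71, interval 4.08 to 5.41). Histone genes of a family are near-identical copies that may share reads, which was not tested, so values of single genes are uncertain. HIST2H4B was called lower at 3490 and 1261 counts, but its FPKM change was −0.36, and its copy HIST2H4A had 3091 and 2750 counts. RN7SL1, RN7SL2, RN7SK, RMRP and RPPH1, other RNAs without a poly(A) tail, together took 5.76% of unirradiated and 5.86% of irradiated counts, and the part of RNA selection in the histone values was not tested.

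The TATA box letters TATAAA were found in 37 of the 53 histone promoters available (69.8%) and in 5.30% of all promoters, and CCAAT in 83.0% and 37.4%. These are known features of histone promoters. Over all genes the median log2 change was −0.06 for promoters with TATAAA and −0.01 for those without, and 3.44% and 1.96% of them were called lower. TATAAA was in 8.96% of the promoters of genes called lower and 5.38% of those called higher.

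The 15 largest rises and the 15 largest falls among abundant genes that changed by both counts and FPKM were then taken. GPX1 (chr3:49357176-49358600), a glutathione peroxidase that removes hydrogen peroxide, had 394 counts in unirradiated and 2316 in irradiated cells (2.71, interval 2.55 to 2.86), and its FPKM was 12.8 and 102. It overlapped no other tested gene. MRFAP1, whose protein binds the chromatin factor MORF4L1, had 468 and 2513 counts (2.57). SPRY1, an inhibitor of receptor tyrosine kinase signalling, had 126 and 483 counts (2.09, but 1.32 by FPKM). DDIAS, an anti-apoptotic gene named for its induction by DNA damage, had 243 and 908 counts (2.05). ZNF264, FBXO34, TRAPPC5, FN3KRP, NUDT16 and C4orf48 were also among the rises, with log2 changes from 1.93 for C4orf48 to 2.77 for FBXO34. For ZNF264 the count change of 2.70 stood against an FPKM change of 1.24.

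Among the falls, TUBB2B, a beta-tubulin, had 818 and 68 counts (−3.44). BEX2, an X-linked regulator of apoptosis, had 291 and 58 counts (−2.18). BTBD3 had 1213 and 266 counts (−2.04) and CCDC137 880 and 174 (−2.19). Several falls had a partner at the same locus. BCL2L2, an anti-apoptotic BCL2 relative, had 1094 and 45 counts, with a log2 change of −4.45 by counts and −2.83 by FPKM, while the read-through gene BCL2L2-PABPN1 had 113 and 147. TEN1, a telomere protein, had 255 and 9 counts, while TEN1-CDK3 had 65 and 280. RPL36A-HNRNPH2 had 974 and 107 counts, while RPL36A had 4000 and 3897 and HNRNPH2 2253 and 2300. RAB43 was among the rises with 74 and 585 counts, while ISY1-RAB43 had 330 and 0. In TGFB2-OT1, within the locus of TGFB2, counts were 10 and 183, and TGFB2 had 2041 and 972. AKAP2, an anchor for protein kinase A, had 5145 and 430 counts, and its partner PALM2-AKAP2 was lower as well at 120 and 17. For overlapping rows the counts of a locus may be divided differently between genes in the 2 libraries, which was not tested, and 34.0% of called genes overlapped another tested gene on the same strand, against 28.1% of genes tested.

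**Figure D3:**
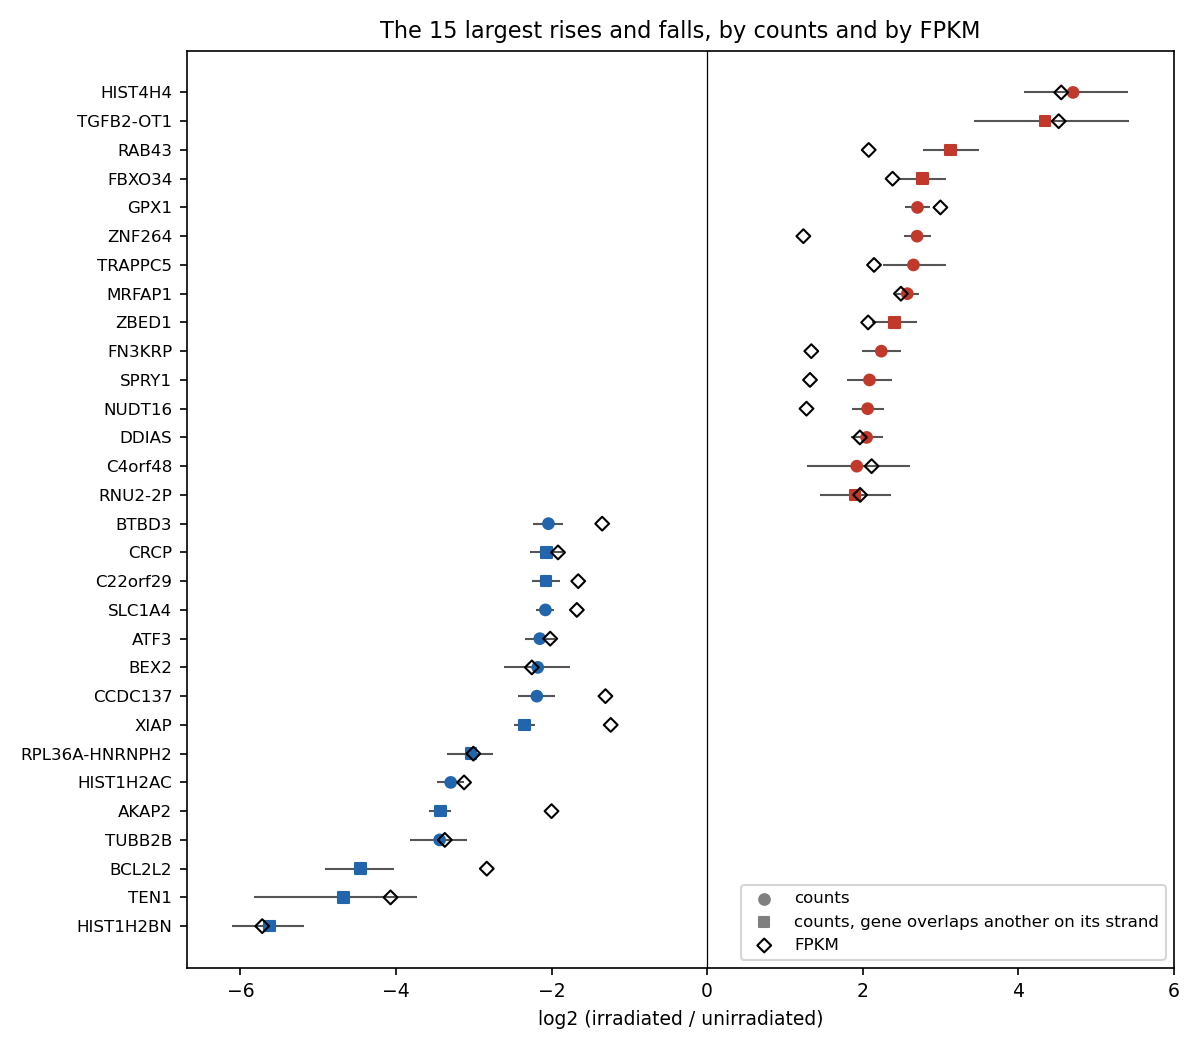
Log2 ratio of irradiated to unirradiated cells with 95% counting intervals for the 15 largest rises and the 15 largest falls of the naming rule, in red for rises and blue for falls, with squares for genes that overlap another tested gene and open diamonds for the log2 ratio of FPKM. Values run from HIST1H2BN at −5.63 to HIST4H4 at 4.71, and GPX1, MRFAP1, ATF3 and SLC1A4 are among those without an overlap.

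Immediate-early and NF-κB feedback genes, which respond within minutes to growth factors, cytokines and stress, were divided. Of 35 tested, 16 were higher and 19 lower, 3 were called higher and 4 lower (20.0% in all, against 4.74% of all genes), and the median was −0.12. EGR1, a zinc finger factor of the ERK pathway, had 59 and 299 counts (2.49, interval 2.08 to 2.92). FOSB had 43 and 110 counts and NFKBIE, an inhibitor of NF-κB, 246 and 479 (1.11, but 0.73 by FPKM). JUN, the central AP-1 subunit, went down from 9220 to 3360 counts (−1.31, interval −1.36 to −1.25), and BTG1 (1591 and 691 counts) and DUSP5 (3337 and 1504) were called lower too, though neither with total counts nor by FPKM. ATF3 is the remaining call of this list. ZFP36, which destabilizes cytokine mRNAs, had 2060 and 3703 counts, just below the fold limit.

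Ligands of the EGF receptor family, which drive growth of epithelial cells, included called falls. AREG had 874 and 343 counts (−1.20) and EREG 5800 and 2297 (−1.19), and both were called. HBEGF (−0.89) and NRG1 (−0.83, but −0.23 by FPKM) were below the fold limit. EGFR itself had 31834 and 21610 counts (−0.41), and ERRFI1, a feedback inhibitor of the receptor, 13445 and 5992 (−1.02, a call lost with total counts and with FPKM). Of 8 tested genes of this family 6 were lower (median −0.86) and 3 were called lower, against 2.2% of all genes. This group was drawn up after values had been seen. ERK feedback and output genes had no common direction, with 7 higher and 8 lower of 15 and a median of −0.05. SPRY1 and EGR1 were called higher and DUSP5 lower among them, while SPRY2 (−0.08), SPRY4 (−0.10) and DUSP6 (−0.57) were not called. These 3 calls among 15 genes stand against 4.74% of all genes, and DUSP5 lost its call with total counts and with FPKM.

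BMP ligands act through SMAD1 and SMAD5 on a small set of direct targets, and 4 of these were called higher. ID1 and ID3, inhibitors of helix-loop-helix factors, had 1826 and 3397 counts (1.05) and 374 and 1137 counts (1.75, interval 1.58 to 1.93). SMAD6, the inhibitory SMAD of the BMP pathway, had 186 and 399 counts (1.25), and ATOH8, a further BMP target, 149 and 481 (1.84). These 4 were called among 14 tested genes of the pathway (against 2.53% of all genes called higher), a group that was drawn up after ID1, ID3 and SMAD6 had been seen, and the median of the 14 was 0.07. Neither the receptors BMPR1A (−0.09) and BMPR2 (−0.34) nor SMAD1 (−0.40) and SMAD5 (0.06) were called. The ligand BMP4 had 74 and 108 counts (0.70, interval 0.26 to 1.14). SMAD7, which TGF-β also induces, had 465 and 444 counts (0.08). Of other members of the group, ID2 had 43 and 52 counts (0.42) and was not called. ID4, BAMBI and HEY1 were below the FPKM limit.

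In the wider list of TGF-β and YAP targets, 14 of 30 genes were higher and 16 lower with a median of −0.07, and 4 were called (13.3%, against 4.74% of all genes), which were ID1, ID3, SMAD6 and ANKRD1. ANKRD1, a YAP target, had 1842 and 649 counts (−1.36). CYR61 (27916 and 15327 counts, −0.72) and CTGF (−0.43), also YAP targets, were not called. YAP1 had 5829 and 5296 counts (0.01).

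Genes of the p53 response were close to the centre. Of 33 tested targets 13 were higher and 20 lower, and the median was −0.10 (0.14 by FPKM). The only call was SESN2, which ATF4 also controls, against 4.74% of all genes called. CDKN1A, the p21 inhibitor of cyclin-dependent kinases, had 1282 counts in unirradiated and 782 in irradiated cells (−0.56). GADD45A, which ATF4 can induce as well, had 2130 and 1052 counts (−0.87). MDM2 had 3070 and 3273 counts (0.24), BAX 1128 and 1182 (0.22) and FDXR 195 and 282 (0.68). Death receptor TNFRSF10B had 2730 and 1553 counts (−0.66) and PMAIP1, a BH3-only protein, 509 and 309 (−0.57). No list of DNA repair had a called member. The list of damage sensing and checkpoint genes had 19 of 30 higher and a median of 0.05, homologous recombination 16 of 27 and 0.03, non-homologous end joining 7 of 18 and −0.04, and the Fanconi anaemia genes 13 of 20 and 0.09. WEE1 (2046 and 2553 counts, 0.47), CDC25A (0.46) and CHEK1 (1020 and 1179, 0.36) were the highest of the checkpoint kinases and phosphatases. At 1 library per condition such differences cannot be set against biological spread.

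Among genes of cell death, 30 were tested, 9 higher and 21 lower, with a median of −0.13. The 2 calls (6.67% of the list, against 4.74% of all genes) were BCL2L2 and XIAP, an inhibitor of caspases with 3186 and 565 counts (−2.35, but −1.24 by FPKM), and both rows overlap another gene.

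Most cell cycle genes were slightly higher and below the fold limit of 2. Of 50 replication and licensing genes 37 were higher (median 0.21) and of 60 mitotic genes 39 were higher (median 0.12), with 0 called in either list. MCM2, a subunit of the replicative helicase, had 4719 and 5663 counts (0.41), while MCM7 was at −0.03. MKI67, the proliferation marker, had 18880 and 14872 counts (−0.19) and TPX2, a spindle factor, 23015 and 19364 (−0.10). Of 32 cyclins, kinases, inhibitors and E2F genes 20 were higher and 12 lower (median 0.11). The only call, against 4.74% of all genes called, was CCND2, a D-type cyclin at a low level, with 248 and 53 counts (−2.08). CCND1, the D-type cyclin with the most counts, had 10101 and 11156 (0.29), CDK1 1726 and 2265 (0.54), CDK4 3015 and 1653 (−0.72) and CDKN2C, an inhibitor of CDK4, 635 and 1006 (0.81). The replication list had its median above 0 and the histone list below. Of 15 tubulins 8 were higher and 7 lower, and 3 were called (20.0%, against 4.74% of all genes). Besides TUBB2B, TUBE1, a centriolar tubulin, was called lower (1977 and 718 counts, −1.31) and TUBA4A higher (132 and 263, 1.14, but 0.97 by FPKM), while TUBB, the most abundant, had 56336 and 43551 counts (−0.22).

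In lipid synthesis, 24 of 32 genes were lower and the median was −0.29. SCD, which introduces the double bond into saturated fatty acids, was the only call of the list, against 4.74% of all genes. It had 39948 and 14667 counts (interval −1.32 to −1.27 on the log2 scale) and FPKM of 258 and 109. FASN, the fatty acid synthase, was not called (−0.17). Of the 79 cytosolic ribosomal protein genes 55 were lower with a median of −0.15 and 0 called. Among transcripts of the mitochondrial genome 12 of 15 were lower (median −0.23), and they took 3.30% of counts in unirradiated and 2.99% in irradiated cells. MT-ATP6 was called higher (17478 and 42514 counts, 1.43), but the MT-ATP8 gene overlaps it and had 5125 and 3386. The rRNA gene MT-RNR1 was called lower from 104 and 30 counts. MT-ATP6 and MT-RNR1 were the only calls among these 15, against 4.74% of all genes. Nuclear genes of oxidative phosphorylation (75 tested, median 0.03) and the proteasome (42 tested, median 0.04) had 1 call each, against 4.74% of all genes. These were NDUFA13 (1.21) and PSMA6 (−1.07), and both overlap another gene and lost their call by FPKM. In glycolysis and lactate transport 20 of 29 genes were higher with a median of 0.17, and none was called.

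The NRF2 list of antioxidant genes held calls in both directions. Of 28 tested, 15 were higher and 13 lower with a median of 0.06, and 3 were called (10.7%, against 4.74% of all genes), namely GPX1 higher and NFE2L2 and SLC7A11 lower. NFE2L2, which encodes NRF2, had 4823 and 1487 counts (−1.55, called), in a row that overlaps another gene. Its target NQO1 had 1538 and 1658 counts (0.26), TXNRD1 7584 and 7185 (0.07) and HMOX1 776 and 550 (−0.35), and the other peroxidase GPX4 3426 and 3030 (−0.03). Heat shock genes (13 of 23 higher, median 0.16) and the list of metallothioneins with their regulator MTF1 and the zinc transporter SLC30A1 (3 of 6 higher, median 0.01) had no called member.

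Secreted factors were divided like the immediate-early genes. Of 24 tested interleukins, chemokines and growth factors 10 were higher and 14 lower, and 5 were called, 2 higher and 3 lower (20.8% in all, against 4.74% of all genes). GDF15, a stress cytokine that both p53 and the integrated stress response can induce, had 8563 and 3611 counts (−1.10, interval −1.15 to −1.04), in a row that overlaps another gene. VEGFA, the angiogenic factor, had 3170 and 1641 counts (−0.80), LIF 3560 and 2175 (−0.56), and CCL2 1415 and 1249 (−0.03). CXCL16 (34 and 85 counts) and PGF (22 and 55) were called higher from few reads. Interferon-stimulated genes were mostly a little higher, 20 of 26 with a median of 0.19, and 0 were called. ISG15, a ubiquitin-like protein, had 464 and 721 counts (0.79) and IFITM3 1686 and 1103 (−0.46). Of the 47 listed, 21 were below the FPKM limit, and MX1 had 0 counts in both libraries. Genes of MHC class I presentation were higher in 14 of 16 (median 0.14) with 0 called.

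Genes of adhesion, matrix and Wnt signalling were read against the same 4.74% of all genes. Of 31 integrin, collagen and laminin genes 23 were higher (median 0.19) and 2 were called (6.45%). COL7A1, the anchoring fibril collagen, had 288 and 635 counts (1.29) and COL6A1 93 and 190 (1.18). Among 23 epithelial and mesenchymal genes 15 were higher (median 0.12) and 3 were called (13.0%). CLDN1, a tight junction claudin, was called lower (2724 and 1010 counts, −1.28), and SPARC (20 and 68) and CDH3 (48 and 91) were called higher at low counts, CDH3 by counts but not by FPKM. In the Wnt list 19 of 27 were higher (median 0.09) with WNT5B (339 and 787, 1.36) and NKD2 (106 and 207, 1.12) called (7.41%), but by FPKM WNT5B changed by 0.60. Keratins (5 of 8 higher, median 0.10) and the urokinase system with matrix proteases (8 of 15 higher, median 0.10) had 0 calls, and KRT19, a ductal keratin, had 5490 and 7817 counts (0.66). Of 12 pancreatic lineage and driver genes ELF3 was called higher by counts (71 and 145, 1.18) but not by FPKM (0.10).

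The study dealt with exosomes, prostaglandin E2 and the recovery of surviving tumour cells. Of 77 genes of extracellular vesicle formation 33 were higher and 44 lower (median −0.07), and the calls were RAB31 (1755 and 4843 counts, 1.61, in an overlapping row), FLOT2, which marks membrane rafts (1210 and 2468, 1.18), RAB5B (463 and 864, 1.05) and EXPH5, a RAB27 effector, in the other direction (538 and 213, −1.19). The 4 calls are 5.19% of the list, near the 4.74% of all genes tested. By FPKM the changes of RAB31 and RAB5B were 0.94 and 0.59. The study reports more RAB27A, TSG101 and CD9 protein soon after irradiation. Of the vesicle genes it measured, TSG101 had 1550 and 1043 counts (−0.42), CD63 changed by −0.12 and RAB27A by −0.11. CD9 changed by 0.16 and CD81 by 0.59, and none of these was called. Of 43 lysosomal genes 26 were lower (median −0.09). LAMP3 alone was called lower (121 and 38, −1.52), against 2.2% of all genes. PTGES, the inducible prostaglandin E synthase, was called higher (41 and 85 counts, 1.20). It was the only call among 24 tested genes of a list drawn up for the study's topics, against 4.74% of all genes. PTGS2, which makes the substrate of PTGES, had 14 and 2 counts and was below the FPKM limit. The study reports that PTGS2 rose after a lag in irradiated cells by qPCR. The interval before RNA extraction was not given for these libraries. The receptor PTGER4 had 535 and 599 counts (0.31), and PTGES3 had 3447 and 4718 (0.60). HMGA2, a chromatin protein of tumour cells, had 7540 and 4737 counts (−0.52), E2F3 778 and 583 (−0.27) and H2AFX, the histone phosphorylated at breaks, 2246 and 2644 (0.39). The median of the 24 tested genes of this list was −0.01 (0.13 by FPKM). ALDH1A1, the study's marker of repopulating cells, had 0 counts in both libraries. The study reports a rise of ALDH1A1 by qPCR in irradiated PANC-1 cells.

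Noncoding RNAs and splicing factors completed the lists. NEAT1, the scaffold of paraspeckles, had 58477 and 95103 counts (0.85, interval 0.84 to 0.87) and remained under the fold limit. The 16 tested cancer-associated long noncoding RNAs had a median of −0.06, 24 small nucleolar RNA host genes −0.12 and 31 SR proteins and splicing regulators −0.11, with 0 calls in each.

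**Figure D4:**
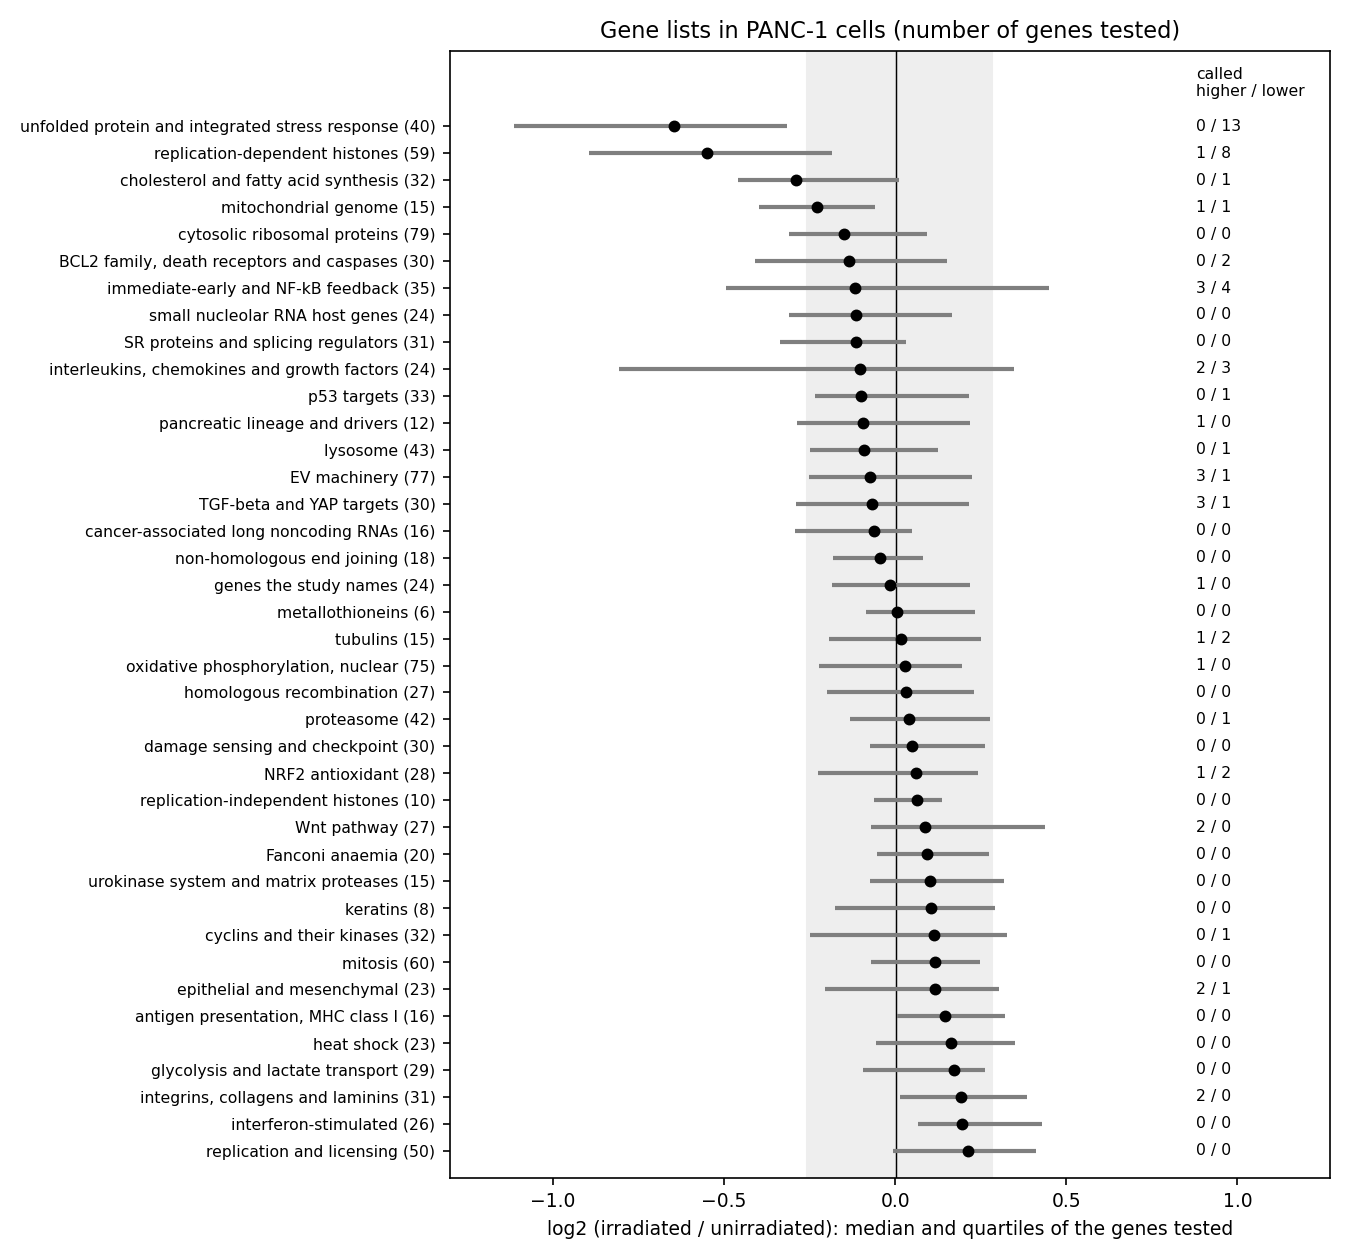
Median log2 ratio of irradiated to unirradiated cells (points) with quartiles (bars) for each gene list, with the number of tested genes in parentheses and the counts called higher and lower at the right and a grey band over the quartiles of all genes tested. The unfolded protein and integrated stress response list lies lowest at −0.65, followed by the replication-dependent histones at −0.55, while replication genes lie above 0 at 0.21.

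Counts and FPKM of a gene did not always tell the same story. Among 11544 genes with more than 200 counts, the log2 changes by the 2 measures differed by more than 1 in 103 genes, of which 54 were called, and 12 called genes went in opposite directions. AHNAK, a giant scaffold protein, had 147453 and 6438 counts (−4.37), but its FPKM was 278 and 174 (−0.68). It was named after its values had been seen. Of the called genes, 58 rested on a library with no more than 3 counts.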

How the data were processed

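RNA of PANC-1 cells was sequenced by the authors in 1 unirradiated and 1 irradiated library. The labels speak of rRNA depletion, while the methods name an mRNA kit. The submitters' processing notes name CASAVA 1.8, FastQC 0.11.2, Trimmomatic 0.36, HISAT2 2.0, StringTie 1.3.3b, DESeq2 1.12.4 and the build GRCh38, and the tool that made the counts is not given in the sources used here. The table the authors deposited had 59263 rows. For each library it gave whole-number read counts, and FPKM values, which the authors corrected for transcript length and library depth. Columns of the authors' own comparisons were not used, and 0 columns of sample values were left unmapped. Of the rows, 1089 were assembled loci without a gene name, which took 0.545% of unirradiated and 0.635% of irradiated counts and stayed out of the main test. Names that a spreadsheet had turned into dates (27) were restored from gene IDs.

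Counts were scaled by TMM (edgeR 4.0.16, R 4.3.3). Each of 15159 genes was tested by an exact conditional binomial test (SciPy 1.17.1) with Benjamini-Hochberg adjustment over all of them, with the limits of the study's supplementary methods: adjusted p below 0.001 and fold change above 2, a level of 0 set to 0.01. The test compares 2 libraries, not conditions, and no p is printed. Intervals are 95% Clopper-Pearson intervals on the log2 ratio and cover counting error only. A floor of 3 counts is 0.132 CPM in the unirradiated and 0.146 in the irradiated library. The calculation was tested on simulated counts that held counting error only, which cannot show how calls hold where cultures vary.

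Members and gene lists were chosen with earlier results of these data known, and groups by role within a pathway after the values had been seen. Genes were named by rule: the 15 largest rises and 15 largest falls among called genes that reached FPKM 5 in the library with more, more than 3 counts in both, and an FPKM fold change above 2 in the same direction, up to 6 called members of each list or the 2 with most counts, and all tested genes of the list for the study's topics. Other named genes were chosen after their values were seen. Promoters were matched through the GENCODE 29 gene identifiers. Alternatives were the scaling, the filter, the fold limit, FPKM in place of counts, an assumed biological variation, and the exclusion of overlapping genes. Some genes are not reported here.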

Additional observations from a re-analysis of the deposited data

Results flagged for a closer look

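For 6 of the largest changes, the same comparison in the second line of the series, SW1990, was called in the opposite direction. The log2 change was 3.13 in PANC-1 and −2.60 in SW1990 for RAB43, 2.57 and −2.31 for MRFAP1, and 2.05 and −1.34 for DDIAS. It was −5.63 and 3.97 for HIST1H2BN, −4.67 and 2.10 for TEN1, and −2.19 and 2.36 for CCDC137. The difference between the lines was not tested, since each condition had 1 library. RAB43, HIST1H2BN and TEN1 overlap another gene on the same strand, and MRFAP1, DDIAS and CCDC137 do not. Over the lines, 13228 genes were tested in both, 518 of the PANC-1 calls were among them, and of 80 genes called in both lines 38 had the same and 42 the opposite direction.

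Among the assembled loci that name no gene and entered no comparison above, 102 of 740 tested loci were called changed between the PANC-1 libraries. Their identity was not examined.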

How the results depend on the processing

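The count of 718 called genes stayed within 1.5 times under scaling by total counts (740, of which 664 were shared), DESeq2 size factors (716, of which 715 were shared) and FPKM fold changes (676, of which 535 were shared). It moved under a filter of FPKM of at least 5, to 318 (134 higher, 184 lower), and without genes that overlap another on the same strand, to 476 (264 higher, 212 lower), both of which test fewer genes. A fold limit of 1.5 gave 1787 (941 higher, 846 lower), a limit of 4 gave 177 (96 higher, 81 lower), and a fold change above 2 with no test gave 1386 (776 higher, 610 lower). An assumed biological coefficient of variation of 0.2 left 100 calls (44 higher, 56 lower) and of 0.4 left 10 (4 higher, 6 lower). Total-count scaling moved the median of all genes by 0.07. Of 96 called genes among list members, groups and named genes, 90 kept their call with total counts, 96 with DESeq2 size factors, 78 with FPKM and 37 with the coefficient of 0.2, and none changed direction under these 4. ASNS, CEBPB, ERRFI1, DUSP5, BTG1 and HIST1H2AK, all near the fold limit, lost their call with total counts and with FPKM. Medians of lists near 0, such as those of p53 targets (−0.10 by counts, 0.14 by FPKM) and lysosomal genes (−0.09 and 0.10), changed sign with the measure, and the cause was not tested. No paired analysis was possible because each condition had 1 library.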
